A study of Mus musculus with 4 samples.

Results

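The subject here is the wild-type mouse embryo at E9.5 and E11.5, stages named by the days of embryonic development. It was read from the wild-type channel of each of 4 two-colour arrays, so 4 of the 8 channels of the series entered: the Cy3 channel where the labels put the wild-type RNA in Cy3, and the Cy5 channel on the arrays with exchanged dyes. Each stage therefore had 1 Cy3 and 1 Cy5 channel, called replicates 1 and 2. The wild-type embryos were NRX+/+ on the C57BL/6J strain and received no treatment. The other channel of every array held RNA of stage-matched NRX-/- embryos of the same strain, which lack nucleoredoxin (gene Nxn), a thioredoxin-related protein studied in this series for its part in Wnt signalling. RNA came from embryos without further dissection being named, and the number of embryos behind each RNA, their sex, and whether a dye swap used a second extract are not given in the sources used here. P-values therefore measure the spread between arrays, which may be technical, and not the spread between litters.

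Between these stages the mouse embryo goes from a body with a closing neural tube, a beating heart tube and forelimb buds to one with spinal and cranial ganglia, hindlimb buds and an organised liver primordium. As general background, the neural tube passes from expanding progenitors to the first neurons, muscle precursors of the somites enter myogenic differentiation, and mesenchyme begins to condense into cartilage. Red blood cells of this period are the primitive wave born in the yolk sac, while the fetal liver prepares the definitive wave. The yolk sac's visceral endoderm takes up maternal proteins and makes serum proteins before the liver does.

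Levels are normalized single-channel signals on a log2 scale, and a difference is the level at E11.5 minus that at E9.5. A pair of levels is given with the Cy3 channel first and the Cy5 channel second. A gene was said to have risen or fallen where the Benjamini-Hochberg adjusted p of limma, fitted over all genes with stage and dye as terms, was under 0.05. Every ± after a difference is limma's moderated standard error (SE, n = 2 arrays a stage). Of 16339 genes tested, 4045 rose (24.8%) and 4950 fell (30.3%). These shares are the ones to set beside the counts of the lists below. Most of these calls were small: 2567 of those that rose and 3767 of those that fell differed by less than 1.5-fold. A stricter count asked for a change of 2-fold or more, with the same sign, in Cy3 and in Cy5, and it held 453 genes that were higher (2.77%) and 176 that were lower at E11.5 (1.08%). The count of calls was 3477 without the Cy3 array of E11.5 and 3733 without the Cy5 array of E11.5, against 8995 with all arrays, and 2855 of the 8995 genes were called in the same direction in each of the 4 fits that left out 1 array. The median difference over all genes was -0.05. In RNA of mixed cell types, more cells of a type and more RNA per cell cannot be told apart.

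The wild-type channels of 1 stage correlated across genes at 0.99, and channels of different stages at 0.97. Between 48.2% and 70.3% of gene probes were well above background in a wild-type channel, with the higher share in Cy5 at both stages. Among the genes described below, S100a9, Ahsg, Nfix, Adgre1, Matn4, Runx2, Col17a1 and Cryba1 were well above background on only 1 of the 2 wild-type arrays of E9.5. Amn, Lgals2, Vil1, Lin28a, Cdx2, T, Hoxb1, Hoxd1, Dsg2, Cd14, Mnx1, Th, Myf6, Prdm1 and Tdgf1 were so on only 1 of the 2 arrays of E11.5, and the sizes of these changes depend on the background signal. Nxn itself had levels of 13.48 and 13.29 at E9.5, then 13.52 and 13.48 at E11.5 in the wild type. The levels lay close together, and the difference of 0.11 ± 0.08 did not pass (limma adjusted p = 0.279).

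**Figure D1:**
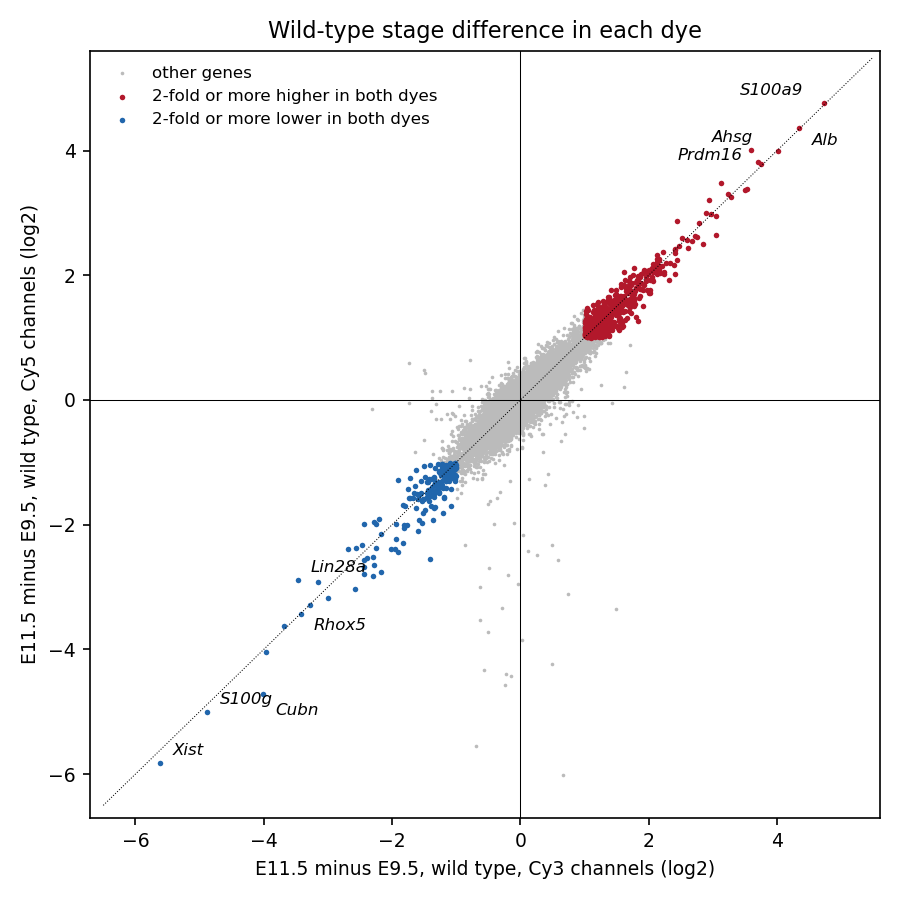
Stage difference (E11.5 minus E9.5, log2) of each of 16339 genes in the Cy3 channels (horizontal) and in the Cy5 channels (vertical) of wild-type embryos. Red and blue points are the 453 and 176 genes at least 2-fold higher or lower in both dyes. The dotted line marks equal differences, and grey points far below it near 0 in Cy3 include genes on low spots of the Cy5 array of E11.5.

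The genes with the greatest rises were a neutrophil protein and liver products. S100a9, a calcium-binding protein of neutrophils and monocytes, read 7.25 and 7.14 at E9.5, then 11.98 and 11.90 at E11.5. It was well above background on only 1 of the 2 E9.5 arrays, as was Ahsg, and the difference was 4.74 ± 0.08 (limma adjusted p = 3.63e-12). Alb, serum albumin, went from 8.61 and 8.52 to 12.95 and 12.88, a 20.4-fold rise. Ahsg, fetuin A of the liver, went from 7.08 and 7.21 to 11.10 and 11.21. In all 3 genes both channels of E11.5 lay far above both channels of E9.5. Genes named here and below for the size of a called change were picked in a way that favours such separation. A lack of overlap therefore describes their levels and adds no support. The share of all genes without overlap was not counted. Hic1, a transcriptional repressor, rose by 3.46 ± 0.08 and Penk, the precursor of enkephalin peptides, by 3.27 ± 0.08. Prdm16, a zinc finger regulator of progenitor and fat cell identity, rose by 3.76 ± 0.08. Cryaa, the alpha A crystallin of the lens, rose by 3.07 ± 0.09, but its 2 probes gave differences of 1.36 and 3.07.

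At the other end, the steepest falls were Xist, the RNA that coats the inactive X chromosome, and genes of the absorptive endoderm. Among the 12 genes under a current symbol with the greatest falls were Cubn, Amn, S100g, Rhox5 and Slc13a4 of the yolk sac list, together with Lin28a, which blocks maturation of the let-7 microRNAs, and Prtg. Prtg, a cell surface protein of the early neural tube and mesoderm, went from 12.04 and 11.68 to 8.88 and 8.76. Its channels did not overlap between stages, and the difference was -3.04 ± 0.09 (limma adjusted p = 2.36e-10). Lgals2, a galectin, fell by 3.65 ± 0.08 and Vil1, which encodes villin of microvilli, by 2.61 ± 0.10 on the log2 scale. Trap1a was not well above background on either array of E11.5 and was at least 7.004-fold lower there.

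Genes marking the sex of the embryo moved with the stage, so they are given before the tissue lists. Xist read 12.82 and 13.26 at E9.5, then 7.21 and 7.43 at E11.5, where it was not well above background on either array. It was at least 52.6-fold lower at E11.5, and its 4 probes all fell, by 1.10 to 5.72 on the log2 scale. Of the Y-linked genes, Eif2s3y read 6.67 and 6.72 at E9.5, not well above background, and 10.26 and 10.73 at E11.5, at least 13.02-fold higher. Ddx3y was at least 8.60-fold and Kdm5d at least 2.87-fold higher at E11.5. The wild-type RNA of E9.5 thus carried Xist without Y-linked signal, and that of E11.5 carried Y-linked signal without Xist. Within the wild-type channels, stage and the sex of the embryos therefore cannot be told apart for any gene, on the sex chromosomes or elsewhere. This holds for the tissue lists below, whose X-linked members are not marked. In the NRX-/- channels Xist was well above background at both stages and differed by 0.54, while Eif2s3y, Ddx3y and Kdm5d were not well above background at either stage. Those channels thus carried Xist without Y-linked signal at both stages. List medians there were 0.94 for the neuronal cytoskeleton, against 1.29 in the wild type, and -0.04 for the yolk sac, against -1.39. How far the sex of the embryos entered the wild-type differences was not tested.

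Neuronal genes formed the list with the largest positive median among the 22 lists plotted here. Of 28 listed genes of the neuronal cytoskeleton and growth cone, 27 were tested, 26 rose and 18 were at least 2-fold higher in both dyes, with a median difference of 1.29. At least 25 of them rose in every fit that left out 1 array. Mapt, the microtubule protein tau, read 9.76 and 9.92 at E9.5, then 12.54 and 12.75 at E11.5. It rose 6.99-fold (2.81 ± 0.08, limma adjusted p = 2.36e-10), and its 3 probes gave 2.53 to 2.81. Stmn3, a tubulin-binding stathmin, went from 11.21 and 11.04 to 13.37 and 13.29. Dcx, doublecortin of migrating neurons, went from 10.72 and 10.66 to 12.84 and 12.77, although its second probe rose by only 0.42. Tubb3, the neuronal beta tubulin, rose 2.68-fold and Stmn2 3.14-fold. The stages did not overlap in any of these genes. Map2, the dendritic microtubule protein, was the only tested member that did not pass. It read 11.72 in Cy3 and 6.89 in Cy5 at E11.5, and its Cy5 spot lay in a stretch of low spots at the edge of that array.

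Synaptic genes rose as well. Among 25 tested genes of synapses and transmission, 22 rose, 1 fell and 11 were at least 2-fold higher in both dyes, with a median difference of 0.88 and at least 19 rises with any 1 array left out. Slc32a1, the vesicular transporter of inhibitory transmitters, read 9.21 and 9.56 at E9.5, then 12.25 and 12.52 at E11.5. This 7.98-fold rise was the largest of the list (3.00 ± 0.08, limma adjusted p = 1.53e-10). Slc17a6, a vesicular glutamate transporter, rose by 1.70 ± 0.08, Gria2, a glutamate receptor subunit, by 2.06 ± 0.08, and Syt1, the calcium sensor of vesicle release, by 1.48 ± 0.08. Atp1b1, a sodium pump subunit found well beyond neurons, was the member that fell, by 0.22 ± 0.08 on the log2 scale, and no member fell without the Cy3 array of E11.5.

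Among genes of neuron identity more rose than fell. Over all genes 24.8% rose and 30.3% fell. Of 28 tested genes for transmitter enzymes and neuron subtypes, 15 rose and 5 fell, with a median of 0.22; without the Cy3 array of E11.5, 9 rose and none of the falls passed. Lhx1, a LIM homeobox factor of spinal interneurons and kidney precursors, read 9.04 and 9.06 at E9.5, then 10.96 and 11.09 at E11.5, a 3.92-fold rise. Gad2, which makes the transmitter GABA, was well above background on neither array of E9.5 and on both of E11.5, and was at least 3.56-fold higher at E11.5. Lhx5 rose by 1.06 ± 0.09 and Ebf3, a factor of postmitotic neurons, by 1.13 ± 0.08. The motor neuron factor Mnx1 and the autonomic factor Phox2a fell by 0.38 ± 0.08 and 0.42 ± 0.09 on the log2 scale. Th, tyrosine hydroxylase of catecholamine synthesis, differed by 0.24 ± 0.08 and passed the test (limma adjusted p = 0.0277).

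The progenitor genes of the neural tube showed the opposite balance. Of 35 tested, 8 rose and 17 fell, with a median of -0.17; without the Cy3 array of E11.5, 10 fell, and without its Cy5 array 3 rose. Nkx6-2, a ventral patterning factor, read 11.44 and 11.67 at E9.5, then 10.13 and 10.30 at E11.5, a 2.53-fold fall. Its relative Nkx6-1 fell by 1.06 ± 0.08, Pax6 by 0.94 ± 0.09, Otx2 by 0.69 ± 0.08 and Sox2, a general progenitor factor, by 0.56 ± 0.08 on the log2 scale. Nes, the progenitor intermediate filament nestin, rose by 0.74 ± 0.08. Hes5, a Notch target in progenitors, read 14.89 and 14.89, then 14.92 and 14.75, and did not pass.

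Most radial glia genes rose. Of 17 tested, 14 rose, none fell by limma (also none at an unadjusted p under 0.05) and 5 were at least 2-fold higher in both dyes, with a median of 0.62; without the Cy3 array of E11.5, 9 rose. The nuclear factor I genes, which act in the switch of progenitors to glial fates, each rose. Nfia went from 8.37 and 8.58 to 10.55 and 10.73, and its 3 probes gave 1.63 to 2.17. Nfib went from 9.87 and 9.88 to 12.07 and 12.03, with 4 probes between 0.47 and 2.27. Nfix went from 7.22 and 7.41 to 9.39 and 9.45. Their differences were 2.17, 2.18 and 2.10 with an SE of 0.08 each, and Nfix was well above background on only 1 of the 2 arrays of E9.5. Fabp7, a fatty acid binding protein of radial glia, rose 3.13-fold.

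**Figure D2:**
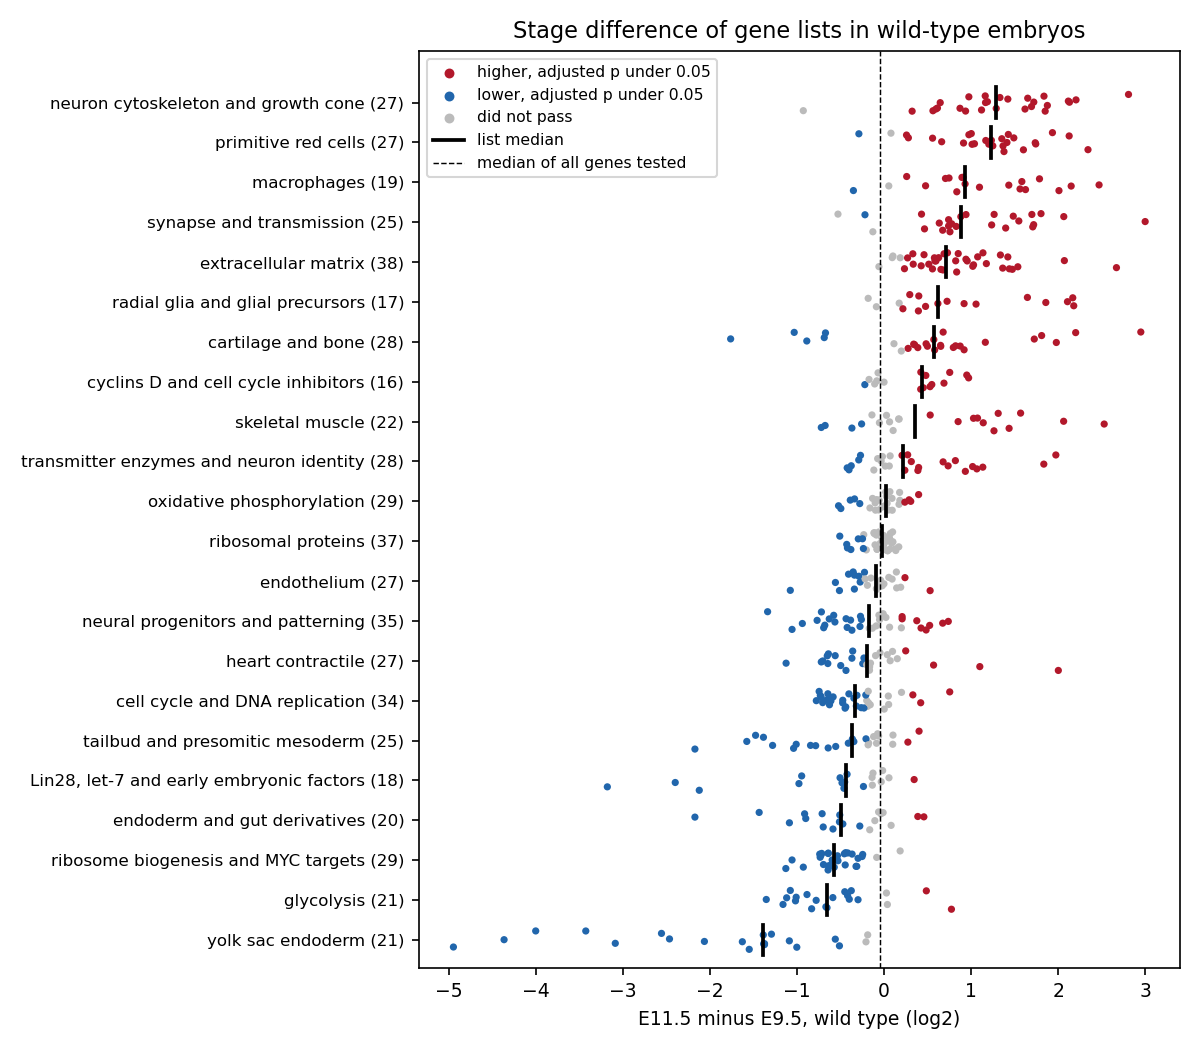
Stage difference (log2, horizontal) of every tested member of 22 gene lists in wild-type embryos, 1 point a gene, with the number tested in brackets. Red and blue points passed the limma test, black bars are list medians and the dashed line is the median of all genes, -0.05; neuronal and red cell lists lie at the top and the yolk sac list, with a median of -1.39, at the bottom.

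Red cell genes rose together. Primitive erythrocytes carry embryonic globins, a membrane skeleton of spectrin and ankyrin, and the enzymes of haem synthesis. Of 27 tested genes of the red cell list, 25 rose, 1 fell and 16 were at least 2-fold higher in both dyes, with a median of 1.23. At least 23 rose with any 1 array left out. Rhd, the Rhesus blood group membrane protein, read 9.68 and 9.97 at E9.5, then 12.12 and 12.21 at E11.5 (2.34 ± 0.09, limma adjusted p = 1.7e-09). Hemgn, a nuclear protein of erythroblasts, rose by 2.12 ± 0.10, Icam4 by 1.93 ± 0.08 and Slc4a1, the band 3 anion exchanger, by 1.74 ± 0.08. Among regulators, Klf1 rose by 1.73 ± 0.08, Tal1 by 1.23 ± 0.08 and Gata1 by 0.91 ± 0.08. Alas2, the entry enzyme of haem synthesis in red cells, rose by 1.35 ± 0.09. Tfrc, the transferrin receptor, fell by 0.29 ± 0.08 on the log2 scale, and no member fell with any 1 array left out. The linear levels of the 27 genes summed to 482831 and 424751 at E9.5, and to 779369 and 723365 at E11.5. The sum was higher in both channels of E11.5 than in either of E9.5.

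The globins differed among themselves in the size of the change. Their promoters are shown because the genes rose together while the adult-type beta globin rose most. The sequences are the 250 bases before the RefSeq start site in build GRCm38.p6, 5′ to 3′ on the gene's strand, with matches to the letters CACCC, to the letters CCAAT and to the letters GATAA on either strand in capitals. Overlapping or adjacent matches run together.

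Hbb-bt (chr7:103813924-103814173, minus strand): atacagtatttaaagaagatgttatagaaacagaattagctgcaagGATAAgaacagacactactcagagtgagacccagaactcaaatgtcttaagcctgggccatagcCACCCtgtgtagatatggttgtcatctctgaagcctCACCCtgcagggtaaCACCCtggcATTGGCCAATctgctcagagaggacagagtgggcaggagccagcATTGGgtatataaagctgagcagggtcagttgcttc
Hbb-y (chr7:103853208-103853457, minus strand): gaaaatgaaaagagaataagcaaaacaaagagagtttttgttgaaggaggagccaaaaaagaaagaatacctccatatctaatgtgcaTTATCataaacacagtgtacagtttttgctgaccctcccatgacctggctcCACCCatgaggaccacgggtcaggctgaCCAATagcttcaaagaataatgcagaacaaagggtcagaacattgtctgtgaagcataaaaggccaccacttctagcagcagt
Hba-a1 (chr11:32283422-32283671, plus strand): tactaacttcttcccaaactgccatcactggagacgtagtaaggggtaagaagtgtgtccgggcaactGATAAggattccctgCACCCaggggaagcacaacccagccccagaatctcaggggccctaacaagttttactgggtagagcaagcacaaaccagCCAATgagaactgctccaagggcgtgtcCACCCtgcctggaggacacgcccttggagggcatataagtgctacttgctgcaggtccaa
Hba-x (chr11:32276350-32276599, plus strand): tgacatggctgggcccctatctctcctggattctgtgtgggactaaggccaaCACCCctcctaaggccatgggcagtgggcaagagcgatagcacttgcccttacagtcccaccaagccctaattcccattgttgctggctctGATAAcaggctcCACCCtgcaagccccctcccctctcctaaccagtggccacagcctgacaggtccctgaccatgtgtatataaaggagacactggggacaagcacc

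Hbb-bt holds 3 matches to CACCC, 3 to CCAAT and 1 to GATAA in this window. Hbb-y holds 1 of each, Hba-a1 holds 2, 1 and 1, and Hba-x holds 2 to CACCC, 1 to GATAA and none to CCAAT in these letters. Of 32817 RefSeq promoters, 52.0% hold CACCC, 33.8% CCAAT and 22.6% GATAA, and 3.45% hold all of them. These are matches of short letters and not measured binding sites.

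Hbb-bt, an adult-type beta globin, read 13.28 and 12.999 at E9.5, then 16.98 and 16.82 at E11.5. That is a 13.6-fold rise (3.76 ± 0.08, limma adjusted p = 2.65e-11), and its 3 probes gave 3.71 to 3.86. Hba-a1, the adult alpha globin, rose 2.57-fold from 16.11 and 15.68 to 17.36 and 17.16. The embryonic genes rose less: Hbb-y went from 17.24 and 16.80 to 18.09 and 17.89, and Hba-x from 16.42 and 15.76 to 17.21 and 16.99. Hbb-bh1, the embryonic beta-like globin of early primitive cells, went from 17.65 and 17.75 to 17.98 and 17.98, a difference of 0.28 ± 0.08. In each globin both channels of E11.5 lay above both channels of E9.5. Globin genes are near-identical within a cluster, so probes may read a sister gene, and Hbb-bt stands for whichever adult beta gene its probes bind. No probe was saturated in a wild-type channel.

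Bcl11a and Sox6, repressors of embryonic globins, rose by 1.98 ± 0.09 and 0.68 ± 0.08, although 1 of the 3 Sox6 probes gave 0.01. Sox6 is also a member of the cartilage list, and RNA of mixed cell types does not show in which cells either gene rose. Of the 20 tested genes of definitive blood and later globins, 13 rose and 1 fell, with a median of 0.50; without the Cy5 array of E9.5, none fell. Mpo, myeloperoxidase of granulocyte precursors, read 9.59 and 9.55 at E9.5, then 10.60 and 10.52 at E11.5. Platelet genes rose by smaller amounts, Pf4 by 0.70 ± 0.08 and Ppbp by 0.88 ± 0.08. Runx1, needed for the emergence of blood stem cells, read 8.39 and 8.48 and then 8.40 and 8.47, and did not pass.

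Macrophage genes rose in a block. Tissue macrophages of this age derive largely from the yolk sac. Of 19 tested, 17 rose, 1 fell and 8 were at least 2-fold higher in both dyes, with a median of 0.93, and at least 15 rose with any 1 array left out. Ctss, a lysosomal protease, read 7.54 and 7.84 at E9.5, then 10.01 and 10.30 at E11.5, a 5.53-fold rise. Lyz2, lysozyme, rose 4.43-fold, C1qc of the complement C1q complex 4.02-fold, Adgre1, a surface antigen of macrophages that was well above background on only 1 array of E9.5, 3.44-fold and Csf1r, the receptor macrophages depend on, 3.08-fold. None of these overlapped between stages. Cd14 fell by 0.35 ± 0.08 on the log2 scale, and no member fell without the Cy5 array of E9.5. The summed level of the list went from 8542 and 9631 to 18006 and 20024. Of the 19 genes, 13 in Cy3 and 18 in Cy5 were well above background at E9.5, against 18 and 19 at E11.5. A member kept only for its E11.5 signal could hardly count as a fall, so the count of rises is partly set by the filter.

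**Figure D3:**
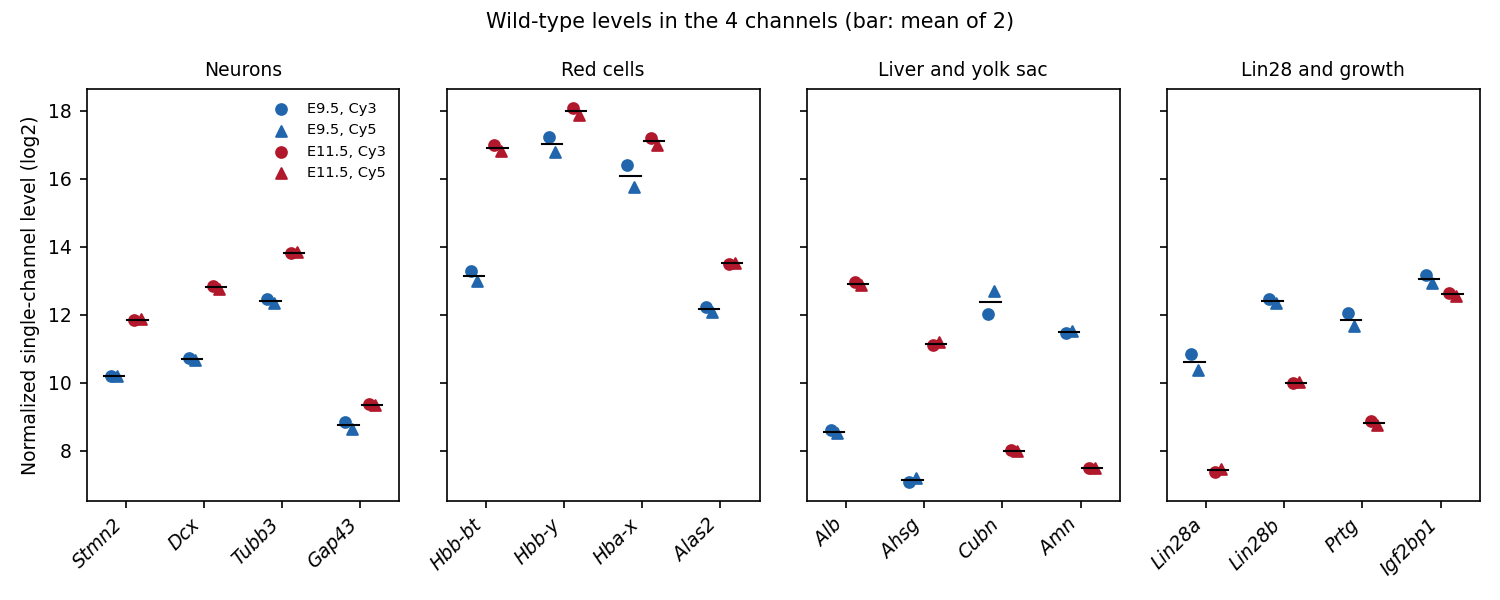
Normalized single-channel level (log2, vertical) of 16 genes in the 4 wild-type channels. Circles are Cy3 and triangles Cy5, blue is E9.5 and red E11.5, and bars are means of 2 channels; Hbb-bt and Alb lie far higher at E11.5, Cubn, Amn and Lin28a far lower.

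The yolk sac list fell as a block. The absorptive cells of the visceral endoderm carry cubilin and amnionless, which together form a receptor for protein uptake. Of 24 listed genes, 21 were tested, none rose by limma (also none at an unadjusted p under 0.05), 19 fell and 16 were at least 2-fold lower in both dyes, with a median of -1.39. At least 18 fell with any 1 array left out. Cubn, cubilin, read 12.03 and 12.71 at E9.5, then 8.02 and 8.001 at E11.5, a 20.6-fold fall (-4.36 ± 0.13, limma adjusted p = 2.75e-10). Amn, amnionless, went from 11.45 and 11.53 to 7.49 and 7.49. S100g, the calcium-binding calbindin D9k, read 11.60 and 11.83 at E9.5 and was not well above background at E11.5, at least 30.8-fold lower. Rhox5, a homeobox gene active in extraembryonic tissue, fell by 3.42 ± 0.08, and Slc13a4, a sulfate transporter, fell by 3.09 ± 0.09 on the log2 scale. Sox17, an endoderm and endothelial factor, fell by only 0.51 ± 0.09. All 21 genes were well above background in each E9.5 channel, against 14 in Cy3 and 18 in Cy5 at E11.5. A member kept only for its E9.5 signal could hardly count as a rise, so the count of falls is partly set by the filter.

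The linear levels of the 21 yolk sac genes summed to 62022 and 64793 in the wild-type channels of E9.5 and to 17177 and 16701 at E11.5. In the NRX-/- channels the sum was between 18189 and 19983 at E9.5 and between 16533 and 17019 at E11.5. The wild-type RNA of E9.5 stood alone with the high sum. For this list the stage difference was itself different between the genotypes in 20 of 21 genes (limma on wild type minus NRX-/-, adjusted p under 0.05; 14.2% of all genes), with an NRX-/- median of -0.04. Over all genes that count was 2327, and it lay between 95 and 231 with any 1 array left out. The part of this list's change in the falls of other genes was not tested.

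Serum protein genes of the liver held large changes in both directions. Of 26 tested, 12 rose and 9 fell, with a median of 0.02. In both dyes 6 were at least 2-fold higher and 4 at least 2-fold lower. Over all genes 24.8% rose, 30.3% fell, 2.77% were at least 2-fold higher and 1.08% at least 2-fold lower. Serpina6, the corticosteroid-binding globulin, rose with Alb and Ahsg, from 8.28 and 8.33 to 11.78 and 11.70. Itih3, an inhibitor chain that binds hyaluronan, rose by 1.56 ± 0.08. Apob, the core apolipoprotein of secreted lipid particles, fell from 11.10 and 11.08 to 8.67 and 8.50, a 5.67-fold fall. Rbp4, the plasma carrier of retinol, fell from 14.67 and 14.58 to 12.999 and 13.01, and Apoa1 and Fgg fell by 1.46 ± 0.08 and 1.23 ± 0.08 on the log2 scale. Afp, alpha-fetoprotein, fell by 0.66 ± 0.08. The genes that fell include several that the yolk sac also makes. The yolk sac sum fell as well, from 62022 and 64793 to 17177 and 16701. Whether the yolk sac list's change had a part in these falls was not tested. In the NRX-/- channels Apob differed by 0.28, Rbp4 by 1.81, Apoa1 by 1.17, Fgg by 1.40 and Afp by 2.64. The difference between genotypes passed for each of these (limma adjusted p between 9.52e-18 and 1.63e-15). It passed for 21 of the 26 genes, beside 14.2% of all genes.

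Placental genes were few and low. Of 16 tested, 3 rose and 9 fell, with a median of -0.50, 2 rises passed without the Cy5 array of E9.5, and the summed level went from 9915 and 10831 to 6695 and 7108. Phlda2, an imprinted brake on placental growth that embryos and yolk sac also express, read 11.14 and 11.64 at E9.5, then 8.76 and 9.101 at E11.5, a 5.51-fold fall. The giant cell hormone Prl3d1 fell by 0.62 ± 0.08 on the log2 scale. Prap1, a secreted protein of uterus and gut, rose by 1.17 ± 0.08.

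Muscle genes followed separate courses in trunk and heart. Among 22 tested skeletal muscle genes, 11 rose, 4 fell and 9 were at least 2-fold higher in both dyes, with a median of 0.35; without the Cy5 array of E9.5, 2 fell. Myog, myogenin, which drives fusion into fibres, read 9.79 and 9.87 at E9.5, then 11.85 and 11.93 at E11.5, and Myh3, the embryonic myosin, went from 10.64 and 10.84 to 13.26 and 13.28. Myod1, a determination factor, rose by 1.31 ± 0.09 and Chrna1, a subunit of the muscle acetylcholine receptor, by 1.57 ± 0.09. In all 4 the stages did not overlap. Myf6 and Pax3, the latter a factor of unspecified muscle precursors and of dorsal neural tube, fell by 0.68 ± 0.08 and 0.37 ± 0.08 on the log2 scale.

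Contractile genes of the heart did not follow. Of 27 tested, 4 rose and 13 fell, with a median of -0.20; without the Cy3 array of E11.5, 7 fell. Myl7, the atrial myosin light chain, went from 15.09 and 15.13 to 13.89 and 14.09, a 2.18-fold fall and the only 2-fold fall of the list. Myh7, the beta myosin heavy chain, fell by 0.36 ± 0.08 and Myl2, the ventricular light chain, by 0.56 ± 0.08 on the log2 scale. Sln, sarcolipin of atrial muscle, rose from 8.59 and 8.90 to 10.65 and 10.84. The summed level of the list fell from 161841 and 159866 to 120825 and 123559. In the NRX-/- channels it went from between 52092 and 57969 to between 128833 and 130033. The list's median difference was 1.14 there. The stage difference was not the same between genotypes in 23 of 27 genes (limma adjusted p under 0.05), beside 14.2% of all genes. Over all genes this count was 2327, and 145 without a dye term.

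**Figure D4:**
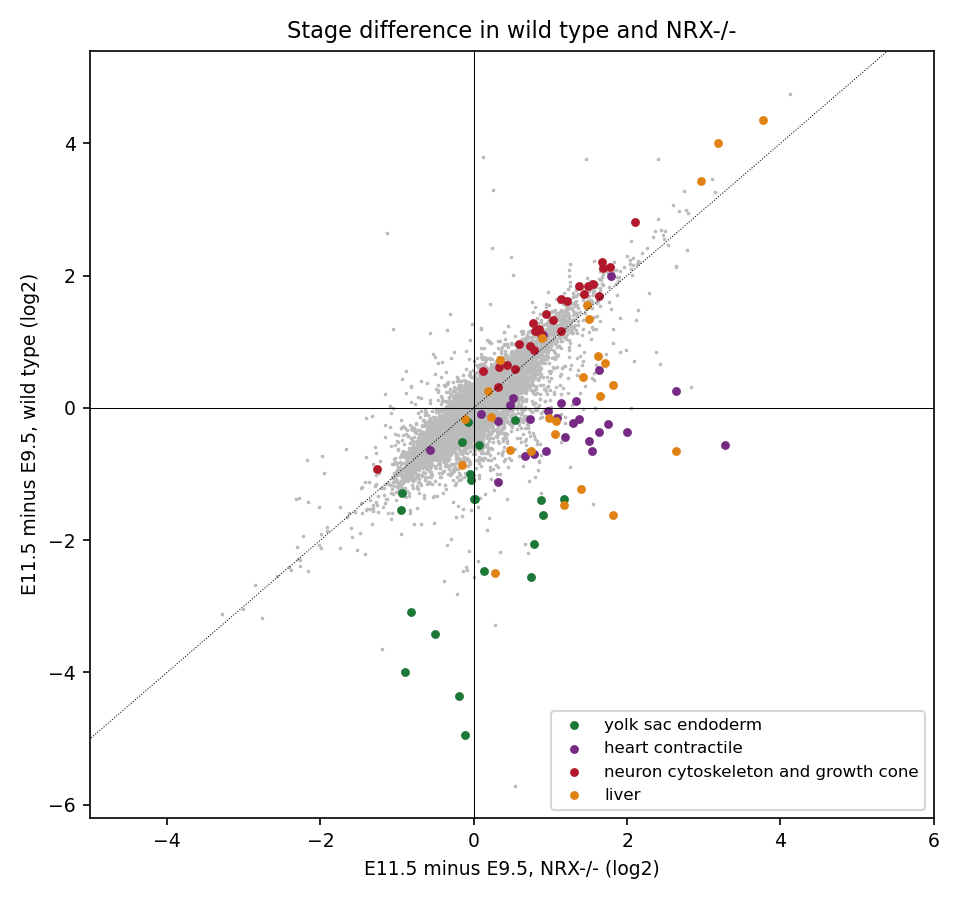
Stage difference (E11.5 minus E9.5, log2) of each gene in NRX-/- embryos (horizontal) and in wild-type embryos (vertical), with 4 gene lists coloured and equal differences on the dotted line. Most neuronal cytoskeleton genes lie above the line and most yolk sac and heart contractile genes below it, with wild-type medians of -1.39 and -0.20 against -0.04 and 1.14 in NRX-/-.

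Connective tissue genes rose. Of 38 tested extracellular matrix genes, 34 rose, none fell by limma (also none at an unadjusted p under 0.05) and 11 were at least 2-fold higher in both dyes, with a median of 0.71. At least 27 rose with any 1 array left out. Ogn, osteoglycin, read 7.53 and 7.75 at E9.5, then 10.37 and 10.24 at E11.5, a 6.35-fold rise. Col6a3, a chain of collagen VI, went from 8.77 and 8.82 to 10.90 and 10.83. Col1a1 and Col3a1, the main fibrillar collagens, rose by 0.94 ± 0.09 and 0.82 ± 0.08, and Dcn, decorin, by 1.17 ± 0.08. The groups did not overlap in any of these.

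In the cartilage, bone and tendon list, 21 of 28 tested genes rose and 5 fell, with a median of 0.58; without the Cy3 array of E11.5, 3 fell. Scx, scleraxis of tendon progenitors, read 10.01 and 9.98 at E9.5, then 12.90 and 12.98 at E11.5, a 7.71-fold rise and the largest of the list. Matn4, a matrilin that was well above background on only 1 array of E9.5, rose 4.59-fold, Col9a3 3.94-fold, Runx2, the bone determination factor, 3.30-fold and Col2a1, the cartilage collagen, 2.24-fold. Sox9, which specifies cartilage, rose by 0.92 ± 0.08. Hapln1, a link protein that also serves heart cushions, went the other way, from 10.33 and 10.38 to 8.50 and 8.69. Alpl, alkaline phosphatase, fell by 1.03 ± 0.08 on the log2 scale. The falls called for Chad and Sp7 rest on 1 channel: Sp7 read 7.69 and 7.61 at E9.5, then 5.96 and 7.57 at E11.5, and Chad 7.60 and 7.74, then 6.29 and 7.68.

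Of 21 tested genes of epidermis and surface ectoderm, 6 rose and 11 fell, with a median of -0.39. Without the Cy3 array of E11.5, 6 fell. Krt15 read 8.16 and 8.29 at E9.5, then 11.13 and 11.28 at E11.5, Krt5 rose 5.88-fold and Krt14 3.88-fold, all markers of the basal layer. Col17a1, which anchors that layer, rose by 1.23 ± 0.08. Krt18 of simple epithelium fell from 14.15 and 14.23 to 13.08 and 13.12. The desmosomal genes Dsp and Dsg2 fell by 0.80 ± 0.09 and 0.79 ± 0.09 on the log2 scale, although the second Dsg2 probe gave -0.18.

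Tailbud genes fell, as did endoderm genes. Of 25 tested tailbud and presomitic genes, 2 rose and 15 fell, with a median of -0.36, and 5 were at least 2-fold lower in both dyes; without the Cy3 array of E11.5, 10 fell, and without the Cy3 array of E9.5 none of the rises passed. Cdx2, a homeobox factor of the caudal embryo and the gut, read 9.66 and 9.91 at E9.5, then 7.71 and 7.52 at E11.5, a 4.51-fold fall, and was well above background on only 1 array of E11.5. Greb1 fell from 10.44 and 10.38 to 8.78 and 8.89. Fgf8, a growth factor of tail, limb ridge and brain organisers, fell from 10.50 and 10.58 to 9.09 and 9.04. Cyp26a1, which clears retinoic acid from the tail, fell by 1.39 ± 0.08 and Wnt3a by 0.84 ± 0.08 on the log2 scale. Tbx6, a factor of the presomitic mesoderm, read 9.81 and 10.25 and then 8.82 and 8.68, and fell by 1.28 ± 0.12. In the NRX-/- channels Cdx2 differed by -0.07, Tbx6 by 0.87 and T (brachyury) by 0.05, against -2.17, -1.28 and -0.79 in the wild type. The difference between genotypes passed for all 3 (limma adjusted p = 3.21e-14, 4.1e-14 and 3.56e-07). It passed for 10 of the 25 genes of the list, beside 14.2% of all genes. In NRX-/- Cdx2 and T were well above background on only 1 array of E9.5. Fgf8 differed by -1.31 in the NRX-/- channels and Cyp26a1 by -1.15, and for neither did the difference between genotypes pass (limma adjusted p = 0.282 and 0.0768). Greb1 differed by -1.24 there, with an adjusted p of 0.0131 for that difference. Whether the fall of the yolk sac list had a part in the changes of these tailbud genes was not tested. Of 20 tested endoderm and gut genes, 2 rose and 12 fell, among them Foxa2, by 1.43 ± 0.08, and Shh, by 0.90 ± 0.08 on the log2 scale. Without the Cy3 array of E11.5, 8 endoderm genes fell and none rose.

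The Hox genes, which give position along the body axis, are given by paralogue group. Medians were -0.21 in groups 1 to 4, 0.15 in groups 5 to 8 and -0.16 in groups 9 to 13. The differences thus did not increase steadily with group number. Over all genes 24.8% rose and 30.3% fell. In groups 1 to 4, where expression begins first, 2 of 12 rose and 6 fell, with a median of -0.21; no rise passed without the Cy3 array of E9.5, and 4 falls passed without the Cy5 array of E11.5. Hoxb1 read 8.71 and 8.65 at E9.5, then 7.47 and 7.47 at E11.5, a fall without overlap between stages. Hoxd1 fell by 0.83 ± 0.09 and Hoxd4 fell by 1.13 ± 0.10 on the log2 scale. Hoxd3 read 7.05 in Cy3 and 8.68 in Cy5 at E9.5, then 8.03 and 8.24 at E11.5, so the stages overlapped, and it did not pass. In groups 5 to 8, 5 of 11 rose, led by Hoxa5 at 0.62 ± 0.08 and Hoxb6 at 0.49 ± 0.09, and Hoxd8 fell by 0.46 ± 0.09 on the log2 scale. Without the Cy5 array of E11.5 none of these 5 rises and not the fall passed. In groups 9 to 13, 3 rose and 3 fell of 10 tested; 2 rises passed without the Cy3 array of E9.5 and no fall without that of E11.5. Hoxd13, the only tested gene of group 13, rose from 9.23 and 9.56 to 10.17 and 10.32, and Hoxa10 from 9.98 and 10.12 to 10.66 and 10.75. In the NRX-/- channels Hoxd13 differed by 2.38 and Hoxc9 by 1.19, against 0.85 and -0.15 in the wild type. The difference between genotypes passed for 7 of the 10 tested genes of groups 9 to 13, beside 14.2% of all genes.

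**Figure D5:**
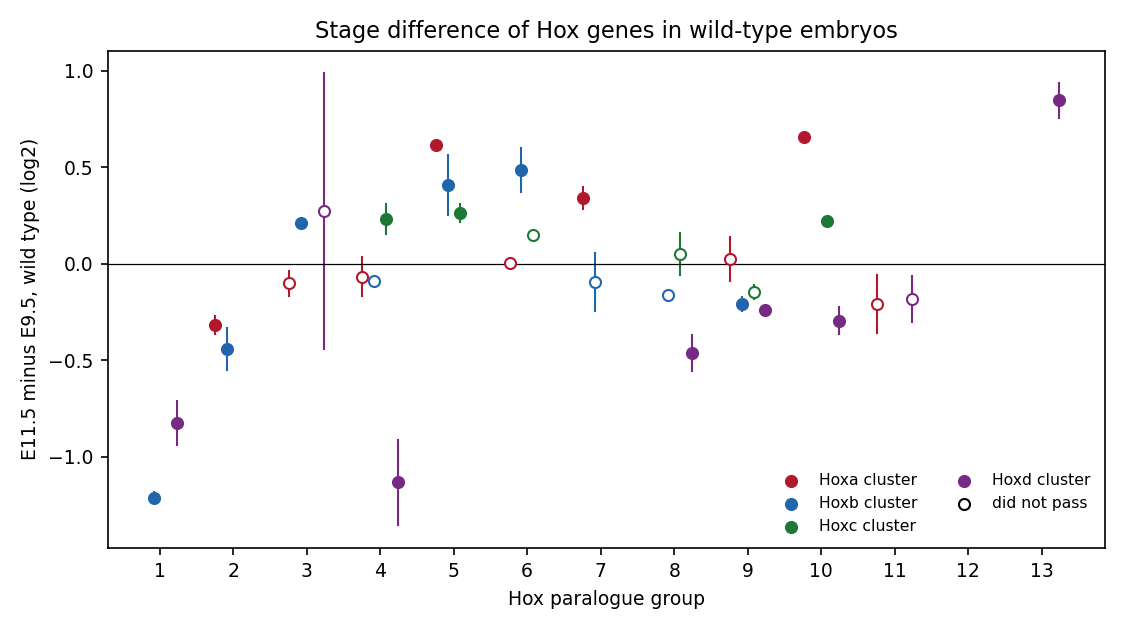
Stage difference (E11.5 minus E9.5, log2, vertical) of tested Hox genes by paralogue group (horizontal) in wild-type embryos, coloured by cluster. Circles are the mean of both dyes, filled where the limma test passed, and lines join the Cy3 and Cy5 differences. Hoxb1 lies lowest at -1.21 and Hoxd13 highest at 0.85; 1 tested gene is not plotted.

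Lin28a and Lin28b, RNA-binding proteins that hold back let-7 microRNAs and mark early developmental timing, fell in both dyes. Lin28a read 10.84 and 10.37 at E9.5, then 7.38 and 7.48 at E11.5, a 9.05-fold fall (-3.18 ± 0.12, limma adjusted p = 1.66e-09), and was well above background on only 1 array of E11.5. Lin28b went from 12.46 and 12.34 to 9.98 and 10.02, and its 3 probes gave falls of 0.62 to 2.40. Sall4, a factor of early embryo and limb, went from 10.85 and 10.70 to 8.59 and 8.71, but its second probe differed by -0.02. These 3 genes lay without overlap between stages. Dnmt3b, a DNA methyltransferase, fell by 0.95 ± 0.08 and Arid3a and the RNA-binding proteins Igf2bp1, Igf2bp2 and Igf2bp3 by 0.98, 0.45, 0.46 and 0.51 on the log2 scale. Hmga2, a chromatin protein whose mRNA is a let-7 target, read 14.34 and 14.62, then 14.21 and 14.48, and did not pass. Mycn fell by 0.48 ± 0.10 and Arid3b by 0.43 ± 0.08. Dnmt3l fell by 0.24 ± 0.08, and Dppa2, Utf1, Tdgf1, Tet1 and Cited1, between -0.14 and 0.06, did not pass. Of the 18 tested genes of this list 11 fell, with a median of -0.44; without the Cy5 array of E11.5, 5 fell. The list also held 1 rise, and its highest difference was 0.34. The microRNAs themselves were not measured.

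Genes of growth and division fell by small amounts. Of 29 tested genes of ribosome biogenesis and MYC targets, none rose by limma (1 was higher at an unadjusted p under 0.05) and 27 fell, with a median of -0.57; without the Cy3 array of E11.5, 16 fell. Gnl3, nucleostemin, read 11.94 and 11.86 at E9.5, then 10.83 and 10.71 at E11.5, Dkc1, of the H/ACA particle, fell by 1.06 ± 0.08 and Myc by 0.93 ± 0.09 on the log2 scale. The ribosomal proteins themselves had a median of -0.03, and 30 of 37 did not pass; the 7 others fell, none of them without the Cy3 array of E11.5. Of 34 tested genes of cell cycle and replication, 22 fell and 3 rose, with a median of -0.33; without the Cy3 array of E11.5, 12 fell, and without its Cy5 array none rose. Ccnb1, cyclin B1, fell by 0.73 ± 0.08 and Cdk1 by 0.64 ± 0.08, while Mki67, a proliferation marker, rose by 0.33 ± 0.08. Of 16 cyclin D and inhibitor genes, 10 rose and 1 fell: Cdkn1c rose from 14.88 and 14.91 to 15.85 and 15.87, and Cdkn2c and Cdkn1b rose by 0.95 ± 0.08 and 0.75 ± 0.08, although the second Cdkn1b probe gave 0.07. Without the Cy3 array of E11.5, 6 rose and none fell.

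Glycolysis genes fell and respiratory chain genes did not move as a group. Of 21 tested glycolysis genes, 17 fell and 2 rose, with a median of -0.66; without the Cy3 array of E11.5, 10 fell and 1 rose. Slc16a3, which exports lactate, read 14.33 and 14.34 at E9.5, then 12.98 and 12.98 at E11.5, a 2.55-fold fall. Hk2, a hexokinase, fell by 1.16 ± 0.09, Slc2a1, the main glucose transporter, by 1.08 ± 0.10 and Ldha by 0.78 ± 0.09 on the log2 scale. Ldhb, the isoform typical of oxidative tissue, rose from 14.51 and 14.79 to 15.33 and 15.52, and Hk1 rose by 0.48 ± 0.08, with 4 probes between -0.03 and 0.51. The glycolysis median was -0.23 in the NRX-/- channels. The stage difference was not the same between genotypes in 13 of 21 genes, beside 14.2% of all genes. Of 29 tested genes of oxidative phosphorylation, 4 rose and 5 fell, with a median of 0.02; without the Cy5 array of E11.5, none rose and 1 fell.

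Signalling pathways showed single genes that moved in both directions. Their list medians ran from -0.22 (FGF) to 0.15 (BMP and TGF-beta), against -0.05 over all genes. Among Wnt ligands and receptors 9 of 27 rose and 6 fell. Wnt11 rose by 1.0002 ± 0.09, Wnt7b by 0.92 ± 0.08 and the receptor Fzd1 by 0.66 ± 0.08. Wnt3a fell, as did the receptor Fzd7, by 0.59 ± 0.08 on the log2 scale, although its second probe gave -0.04. Of the antagonists and targets 9 of 27 rose and 9 fell. The secreted antagonists Wif1 and Dkk2 rose by 1.40 ± 0.09 and 1.17 ± 0.08, from 7.75 and 8.02 to 9.31 and 9.26 and from 9.52 and 9.52 to 10.74 and 10.64. The pathway targets Sp5, Tcf7 and Axin2 fell by 1.04 ± 0.08, 1.11 ± 0.08 and 0.41 ± 0.08 on the log2 scale, while Lef1 read 12.25 and 12.48, then 12.25 and 12.29, and did not pass. With 1 array of E11.5 left out, as few as 2 genes fell in either list, and as few as 4 rose among ligands and receptors and 5 among antagonists and targets.

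In the BMP and TGF-beta list 13 of 30 rose and 5 fell; 8 rises passed without the Cy3 array of E11.5 and no fall without its Cy5 array. The largest fall of the list, Smad6, rests on a low spot of the Cy5 array of E11.5: it differed by -0.04 in Cy3 and by -2.95 in Cy5. Inhba, an activin subunit, read 7.66 and 7.39 at E9.5, then 9.79 and 9.71 at E11.5, and Gdf10 rose by 1.92 ± 0.08. The FGF list held 10 falls among 20 genes, with the feedback genes Dusp6 and Spry1 falling by 0.69 ± 0.08 and 0.51 ± 0.08 beside Fgf8, but 3 genes fell and 1 rose without the Cy3 array of E11.5, against 3 rises with all arrays. Of 14 tested retinoic acid genes, 3 rose and 6 fell: Rxrg rose by 1.44 ± 0.09, and Crabp1 and Aldh1a3 fell by 0.98 ± 0.10 and 1.12 ± 0.10 on the log2 scale. Notch genes mostly did not pass: 4 of 21 rose and 2 fell, with Hes6, which is high in newborn neurons, rising by 0.96 ± 0.09; 1 rise passed without the Cy5 array of E11.5 and no fall without that of E9.5. In the hedgehog list 3 of 16 rose and 5 fell, among them Shh and its target Ptch1, which fell by 0.48 ± 0.08 on the log2 scale; 1 rise passed without the Cy3 array of E9.5 and 1 fall without that of E11.5. In the retinoic acid list 2 rises passed without the Cy3 array of E11.5.

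Sense organ and kidney genes held some of the larger rises outside the lists above. Of 19 tested genes of eye and ear, 9 rose and 5 fell, with 5 at least 2-fold higher in both dyes; without the Cy3 array of E11.5, 2 fell. Oc90, an otolith protein of the inner ear, read 8.54 and 8.63 at E9.5, then 10.13 and 10.18 at E11.5, and Otor, otoraplin of the cochlea, went from 7.502 and 7.54 to 9.05 and 9.21. Cryba1, a beta crystallin, rose by 1.26 ± 0.08. Eya1, an early factor of placodes and kidney, fell by 0.97 ± 0.08 on the log2 scale, although its second probe gave -0.29. Among 17 urogenital and germ cell genes, 7 rose and 2 fell; 3 rises passed without the Cy3 array of E9.5 and 1 fall without its Cy5 array. Osr1, a factor of the intermediate mesoderm, rose from 8.89 and 8.98 to 10.66 and 10.59, and Six2 of nephron progenitors rose by 1.38 ± 0.10. Prdm1, a factor of germ cell specification, fell by 0.68 ± 0.08 on the log2 scale.

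Of 23 tested crest and pigment genes, 10 rose and 5 fell: the pigment genes Dct and Pmel rose by 1.15 ± 0.08 and 0.91 ± 0.09, and Snai2 by 0.85 ± 0.09. In the limb list 9 of 25 rose and 7 fell, beside 24.8% and 30.3% of all genes, with Shox2 rising by 0.83 ± 0.08 and Sp8 of the apical ridge falling by 1.17 ± 0.08 on the log2 scale beside Fgf8. Without the Cy5 array of E11.5, 4 crest and 2 limb genes rose; 1 crest fall passed without the Cy3 array of E11.5 and 4 limb falls without that of E9.5. Tbx5, which acts in heart and forelimb, rose from 9.75 and 9.46 to 10.62 and 10.45. Of 17 heart regulators 4 rose and 7 fell (3 of each without the Cy3 array of E11.5), among them Nkx2-5, by 0.77 ± 0.08, and Hand1, by 1.10 ± 0.09 on the log2 scale. Nkx2-5 differed by 0.10 in the NRX-/- channels (limma adjusted p of the difference between genotypes 1.54e-07).

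Vessel genes moved little. Of 27 tested endothelial genes, 2 rose and 10 fell, with a median of -0.09; without the Cy3 array of E11.5, 2 fell, and without its Cy5 array none rose. Emcn, endomucin, fell by 0.41 ± 0.08 and Kdr, a receptor for VEGF, by 0.28 ± 0.09 on the log2 scale, and Vwf, von Willebrand factor, rose by 0.53 ± 0.09. Of 14 smooth muscle and pericyte genes, 7 rose and 4 fell, with Cspg4 of pericytes rising by 1.16 ± 0.08 and Cnn1, calponin, falling by 0.48 ± 0.09 on the log2 scale; 4 rises passed without the Cy5 array of E9.5 and no fall without the Cy3 array of E11.5. Of 25 imprinted genes, 13 rose and 3 fell; 9 rises passed without the Cy3 array of E11.5 and 1 fall without the Cy5 array of E9.5. H19, a long noncoding RNA of the Igf2 locus, went from 14.78 and 14.63 to 15.72 and 15.73, and Igf2, a fetal growth factor, from 15.68 and 15.58 to 16.39 and 16.29. Among 11 interferon response genes 4 rose and 4 fell, with 1 rise without the Cy3 array of E9.5 and 2 falls without its Cy5 array. Among 17 stress and dissociation genes 7 rose and 2 fell, with the heat shock gene Hspa1a rising by 0.79 ± 0.09 and Atf3 falling by 0.72 ± 0.08 on the log2 scale; 3 rises passed without the Cy5 array of E11.5 and 1 fall without that of E9.5.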

How the data were processed

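Total RNA of embryos at E9.5 and E11.5 was amplified with an oligo-dT-T7 primer, labelled with Cy3 or Cy5 and hybridised to Agilent whole mouse genome arrays, per the labels' protocols. The deposited scanner output of 4 arrays, on 1 slide and from 1 scan, holds spot intensity in both colours, made with Feature Extraction 9.1.3.1 per the file headers and 9.5.3.1 per the submitters' processing notes. Neither the headers nor the labels name a genome build for the probes.

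Mean and background intensities were corrected by normexp (offset 50), normalized by loess within arrays with control spots at weight 0 and by Aquantile between arrays, and turned into log2 levels per channel (R 4.3.3, limma 3.58.1). The wild-type channels thus share a normalization with the NRX-/- channels. Probes flagged as outliers on any array were left out (293). A probe was kept where it was well above background in the wild-type channel on both arrays of 1 stage or more, which left 23676 probes, and the brightest kept probe stood for its gene, giving 16339 genes. Of these, 13765 carry a current symbol through the RefSeq table (GRCm38.p6, used for names and promoter sequences). The others keep the name in the files. A gene kept through 1 stage alone had to be bright there, which favours a lower level at the other stage. With signal well above background required at both stages, 13725 genes were tested, 3978 rose and 4319 fell. A gene not well above background on any array of a stage has only a bound there, written as at least N-fold: the other stage's mean against the mean, per array, of the higher of the lowest signal well above background and the dim probe's own.

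The stage difference was tested with limma, with dye as a covariate and 1 residual degree of freedom beside a prior of 10.836, and Benjamini-Hochberg adjustment at 0.05. The difference between genotypes was tested the same way on wild type minus NRX-/- within each array. The number of arrays, 2 a stage, limits the precision. The fitting steps were tested on simulated data. The 46 lists held 1075 genes, of which 921 were tested. Genes named in the text are the 12 largest rises and falls called in the same direction in both dyes among current symbols, from each list the first 3 tested members and up to 4 called members in each direction, the sex-linked, Hox, globin and Lin28 genes, Nxn, and the 5 largest differences between genotypes in each direction. Map2 and the genes given for low spots were chosen after their values were seen. The members and lists were chosen with earlier results of these data known. Some results are not reported here.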

Additional observations from a re-analysis of the deposited data

Results flagged for a closer look

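For 10 genes the stage difference of the wild type stood furthest from that of the NRX-/- embryos, by limma's test of the difference between genotypes; the values are the wild-type difference minus the NRX-/- difference on the log2 scale, with n = 2 arrays a stage. The positive end held the Y-linked Eif2s3y (3.68 ± 0.16 SE, adjusted p = 6.12e-14), Ddx3y (3.05 ± 0.17, adjusted p = 5.14e-12) and Orly (1.79 ± 0.16, adjusted p = 2.32e-08). It also held Prdm16 at 2.30 ± 0.09, which rose by 3.76 in the wild type and differed by 1.47 in NRX-/-. The histone gene H4c9 stood at 2.24 ± 0.09, with 1.19 in the wild type and -1.05 in NRX-/-.

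The negative end held Xist at -6.26 ± 0.09 (adjusted p = 1.76e-22) and the yolk sac genes S100g at -4.83 ± 0.13 and Cubn at -4.17 ± 0.10. Myl2, the ventricular myosin light chain, stood at -3.84 ± 0.09, with -0.56 in the wild type and 3.28 in NRX-/-. Rbp4, the retinol carrier, stood at -3.44 ± 0.09, with -1.62 and 1.81. For Xist, S100g and the Y-linked genes Eif2s3y, Ddx3y and Orly the wild type was not well above background at 1 stage, and in NRX-/- the Y-linked genes were well above background at neither stage and S100g on 1 array of E9.5, so these differences depend on the background signal.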

How the results depend on the processing

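The count of genes called between stages (8995) was 5980 without a dye term and between 3477 and 6939 with 1 array left out, a fit without the dye term in which the lone array of a stage is assumed to vary like the other pair. Genes at least 2-fold apart in both dyes numbered 629, and 1296 from Feature Extraction's processed signals. The count differing between genotypes (2327) was 737 with those signals, 145 without a dye term and between 95 and 231 with 1 array left out. The cause of these shifts was not tested. Every other setting run kept the counts within 1.5 times. Of the named genes' values under alternatives, 4929 kept direction and call, 492 lost the call, 14 gained it and 13 reversed. Without background subtraction Sp7 (0.19), Chad (0.32) and Oas1a (0.68) reversed. With the processed signals Sp7 (0.58), Chad (0.85), Oas1a (2.21), Dlk1 (-0.088), Sdhb (-0.0033) and Smo (-0.034) reversed. With 1 array left out, Chad ran from -1.44 to 0.0031, Oas1a from -0.93 to 0.071, Dkk1 from -0.70 to 0.024 and Smad6, on the low spots, from -3.15 to 0.23. List medians moved in 254 of their values and stayed in 343; the sex-linked list had no gene well above background at both stages and gave no median there. The dye term pairs the stages within a dye, and the genotype test compares the 2 channels of each array. Signal over background limits the genes given as bounds.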

Other observations

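A group of low spots touched 1 array. On the Cy5 array of E11.5, 55 spots lay at least 2 log2 units below the replicate array in both channels, against 0, 19 and 3 on the Cy3 array of E9.5, the Cy5 array of E9.5 and the Cy3 array of E11.5. Of the 55, 53 lay in the last 10 of 532 rows. They touched 25 tested genes, of which 21 were called and none was among the 2-fold genes. Kdm4a, a histone demethylase, differed by 0.67 in Cy3 and by -6.02 in Cy5, and Map2 by 1.49 and -3.35. Without these genes, an alternative chosen after seeing the data, 9173 genes were called (4125 higher and 5048 lower), 629 were 2-fold apart in both dyes and 2324 differed between genotypes.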
